A study of Mus musculus with 8 samples.

Results

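Expression of 40 genes of the cell cycle was examined in mouse pancreatic buds: genes of S phase, mitosis and G1, the cyclins with their kinases, and the Cip/Kip inhibitors. A member was measured where a probe set carried its symbol alone, and the brightest such probe set stood for the gene. This held for 38 of 40 members, out of 19938 genes measured. Cdkn1a (p21), whose probe set is shared with a second symbol, and Ccnb1 (cyclin B1), for which no singly named probe set is listed, were not analysed here.

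A dividing cell passes from G1 through DNA replication in S phase to mitosis. D cyclins with Cdk4 or Cdk6 and then E cyclins with Cdk2 phosphorylate the Rb family and so release E2F factors, which switch on replication genes. Mitotic genes follow late, and the Cip/Kip proteins hold the cyclin kinases back. In the embryonic pancreas, multipotent progenitors and the mesenchyme divide actively, whereas cells that enter the endocrine lineage leave the cycle.

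All samples were e12.5 pancreatic buds, and each of 4 groups was 1 pool of RNA hybridized to 2 Affymetrix mouse gene 1.0 ST arrays, of which the second was a technical repeat. The VEGF pool came from 3 embryos carrying Pdx1-tTA, a tetracycline transactivator driven by the Pdx1 promoter, together with TET-VEGF, the VEGF transgene that responds to it. The control pool came from 3 littermates that carried Pdx1-tTA alone. The remaining pools held 5 wild-type buds each, explanted and cultured for 2 days with a VEGF receptor 2 inhibitor (VEGFR2i) or with vehicle. The comparisons ask how added VEGF, or loss of its receptor's activity, affects the bud. Values are log2 expression. Since a condition is 1 pool, no test of a condition was possible, and SDs (n = 2 arrays) cover hybridization error alone. In such bulk RNA, fewer cells of a type and less RNA per cell cannot be told apart.

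Differences are between pool means, with the lowest and highest of the 4 pairs of arrays in brackets. A gene was past the size rule where the difference reached 1.5-fold (0.58) and the arrays of the pools did not overlap. Because most members differed by less, a second count asked only for separate arrays, that is, for both values of a pool to exceed both values of its counterpart. The arrays of a pool correlated at 0.997 to 0.998 over probe sets, and the median gap between the arrays of a pool was 0.03 to 0.05 for the members, with a largest gap of 0.30 for Ccne2. Pdx1, which defines the pancreatic epithelium, was at 6.50 and 6.26 on the VEGF arrays, 7.02 and 6.90 on the control arrays, and 8.37 to 8.49 on the explant arrays. The explants go against their labels: of 17 endothelial markers, 16 passed the size rule upwards in the pool labelled VEGFR2i and none downwards, against 1.82% of all genes upwards. Directions for the explants therefore follow the labels as they stand.

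The members' promoters are shown first, because mitotic and replication genes are classically driven through different sequence elements. RefSeq promoter windows (GRCm38.p6) were found for 31 of 40 members. Within the 250 bases before the start, 3 elements were searched on both strands: TTTGAA, the core of the cell cycle homology region (CHR) of mitotic genes, CCAAT, the site of the factor NF-Y, and TTTGGCGC or TTTCCCGC, forms of the E2F site. The CHR letters were found in 6 of 16 mitotic members (37.5%), in 1 of 8 S phase members and in 18.3% of 27025 genes with a window. CCAAT stood in 14 of 16 mitotic and 7 of 8 S phase members, against 37.5% of all genes. The E2F letters stood in 3 of 8 S phase members and in none of the mitotic ones, against 1.51% of all genes. For the E2F letters the lists of other genes showed less contrast, at 5 of 42 replication genes (11.9%) and 5 of 54 mitotic genes (9.26%). The CHR letters stood in 22 of the 54 other mitotic genes (40.7%) and 6 of the 42 other replication genes (14.3%). CCAAT stood in 35 of the 54 (64.8%) and 25 of the 42 (59.5%), and also in 11 of 17 p53 target genes (64.7%). In the whole window of 300 bases, which ends 50 bases past the start and was tried after the data were seen, CHR letters were in 11 of 16 mitotic members and 20.2% of all genes. All 6 mitotic members whose windows hold both CHR and CCAAT letters are printed: the cyclin gene Ccnb2 (chr9:70421555-70421804, minus strand), the anaphase activator Cdc20 (chr4:118437344-118437593, minus), the mitotic kinase Cdk1 (chr10:69352913-69353162, minus), the spindle motor Kif11 (chr19:37376132-37376381, plus), the proliferation marker Mki67 (chr7:135716380-135716629, minus) and the topoisomerase Top2a (chr11:99024190-99024439, minus). For contrast, the 3 S phase windows with E2F letters follow, those of the replicative helicase subunits Mcm5 (chr8:75109259-75109508, plus), Mcm6 (chr1:128359706-128359955, minus) and Mcm7 (chr5:138171884-138172133, minus). Between the bud pools, described next, the arrays of the first 4 genes were separate, while those of Mki67, Top2a and the 3 helicase genes overlapped. Mcm7 had 2 windows, and the printed one was chosen for holding at least as many of the 3 elements as the other. In the counts, a gene held an element if any of its windows did. Capitals mark the searched letters on either strand, and none of these matches overlapped another element. A match is a description of the sequence and no evidence of binding.
Ccnb2: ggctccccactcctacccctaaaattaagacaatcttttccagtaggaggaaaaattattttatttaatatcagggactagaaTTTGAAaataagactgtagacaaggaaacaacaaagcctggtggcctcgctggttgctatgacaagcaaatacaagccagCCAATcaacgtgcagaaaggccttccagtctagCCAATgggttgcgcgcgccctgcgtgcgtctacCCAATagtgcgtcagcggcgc
Cdc20: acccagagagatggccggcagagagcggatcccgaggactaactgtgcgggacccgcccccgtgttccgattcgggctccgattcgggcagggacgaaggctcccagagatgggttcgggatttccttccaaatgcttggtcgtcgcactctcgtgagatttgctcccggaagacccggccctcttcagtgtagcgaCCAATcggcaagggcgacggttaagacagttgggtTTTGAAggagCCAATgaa
Cdk1: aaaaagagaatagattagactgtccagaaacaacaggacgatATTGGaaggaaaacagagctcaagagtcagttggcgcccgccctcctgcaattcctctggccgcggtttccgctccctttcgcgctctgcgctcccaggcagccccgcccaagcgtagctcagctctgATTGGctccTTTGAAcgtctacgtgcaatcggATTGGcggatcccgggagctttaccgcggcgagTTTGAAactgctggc
Kif11: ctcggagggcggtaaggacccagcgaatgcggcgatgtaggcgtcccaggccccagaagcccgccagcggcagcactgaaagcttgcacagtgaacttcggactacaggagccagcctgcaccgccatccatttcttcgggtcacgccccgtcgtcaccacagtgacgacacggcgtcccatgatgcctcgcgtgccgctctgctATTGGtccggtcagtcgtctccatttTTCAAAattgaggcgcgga
Mki67: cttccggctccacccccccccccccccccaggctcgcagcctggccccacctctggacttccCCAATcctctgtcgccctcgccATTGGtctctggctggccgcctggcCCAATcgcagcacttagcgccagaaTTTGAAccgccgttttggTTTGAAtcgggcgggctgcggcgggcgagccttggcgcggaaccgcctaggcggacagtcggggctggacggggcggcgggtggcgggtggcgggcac
Top2a: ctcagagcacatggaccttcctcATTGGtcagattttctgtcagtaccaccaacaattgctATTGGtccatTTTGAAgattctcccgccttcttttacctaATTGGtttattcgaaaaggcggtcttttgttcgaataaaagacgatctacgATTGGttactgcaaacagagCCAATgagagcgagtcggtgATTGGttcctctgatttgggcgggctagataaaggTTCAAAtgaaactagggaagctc
Mcm5: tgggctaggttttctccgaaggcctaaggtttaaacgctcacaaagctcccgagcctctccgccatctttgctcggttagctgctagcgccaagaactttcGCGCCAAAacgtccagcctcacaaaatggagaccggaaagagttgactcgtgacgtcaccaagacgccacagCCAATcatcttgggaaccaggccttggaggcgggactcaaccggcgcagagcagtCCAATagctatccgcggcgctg
Mcm6: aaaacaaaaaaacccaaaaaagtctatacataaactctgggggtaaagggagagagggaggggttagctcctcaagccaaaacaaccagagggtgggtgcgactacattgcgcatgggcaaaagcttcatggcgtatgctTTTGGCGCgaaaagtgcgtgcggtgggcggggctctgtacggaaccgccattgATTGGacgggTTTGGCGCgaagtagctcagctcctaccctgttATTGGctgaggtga
Mcm7: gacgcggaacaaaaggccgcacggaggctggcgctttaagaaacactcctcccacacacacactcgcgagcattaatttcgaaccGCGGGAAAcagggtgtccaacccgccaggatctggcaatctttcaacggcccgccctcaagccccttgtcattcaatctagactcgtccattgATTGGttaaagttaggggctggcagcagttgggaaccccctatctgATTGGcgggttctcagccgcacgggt

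In the fresh buds, mitotic genes lay slightly above their control level in the VEGF pool, while the S phase members and the Cip/Kip genes had medians near or below 0. Every one of the 19 measured mitotic members had a positive difference, and for 16 of them both VEGF arrays lay above both control arrays. The same held for 23.7% of all genes, and for 36.1% of the genes with a mean level of at least 8. Separate arrays in the other direction were seen for none of the mitotic members, against 21.6% of all genes and 22.9% of those at that level. The differences were small: the median was 0.15 and the largest 0.27. None of the 38 members passed the size rule, which 0.552% of all genes passed upwards and 0.933% downwards.

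Birc5, Cdca8 and Aurkb encode survivin, borealin and the Aurora B kinase of the chromosomal passenger complex, which corrects the attachment of chromosomes to the spindle. Birc5 (probe set 10382998) was at 6.80 and 6.77 on the VEGF arrays and at 6.55 and 6.49 on the control arrays, a difference of 0.27 [0.22, 0.31]. Cdca8 was at 7.78 and 7.80 against 7.62 and 7.54 (0.20 [0.15, 0.25]). All 3 members of the complex had higher VEGF arrays with no overlap, Aurkb by 0.11.

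Plk1 and Aurka are kinases of mitotic entry and spindle poles. Plk1 was at 9.48 and 9.44 in the VEGF pool against 9.28 and 9.24, a difference of 0.19 [0.16, 0.23]. Aurka was at 8.23 and 8.18 against 8.03 and 8.01 (0.19 [0.16, 0.22]), and its activator on the spindle, Tpx2, at 9.05 and 9.07 against 8.91 and 8.87 (0.17). For these 3 genes the gap between the pools was larger than the gap between the arrays of a pool.

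Among genes of the kinetochore and the spindle checkpoint, Bub1 was at 9.08 and 9.15 against 8.95 on both control arrays (0.16 [0.13, 0.20]). Bub1b, the BubR1 kinase, was at 8.91 on both VEGF arrays against 8.69 and 8.79 (0.17), and Cenpf at 7.72 and 7.73 against 7.59 and 7.52 (0.17). The arrays did not overlap for any of the 3. Cdc20, which the checkpoint restrains, was higher by 0.15 [0.07, 0.24] and the kinetochore motor Cenpe by 0.09 [0.02, 0.17].

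Of the kinase and cyclins that drive entry into mitosis, Cdk1 differed by 0.12, Ccna2 by 0.15 and Ccnb2 by 0.11. The motors Kif11 and Kif20a, which push spindle poles apart and act in cytokinesis, differed by 0.09 and 0.11. These 5 also had separate arrays. The 3 mitotic members whose arrays overlapped were the proliferation marker Mki67, at 9.61 and 9.59 against 9.59 and 9.49, the topoisomerase Top2a, at 10.16 and 10.10 against 10.12 and 10.05, and Nusap1, which binds spindle microtubules and differed by 0.02. Mki67 and Top2a, widely used as markers of dividing cells, thus did not separate the bud pools.

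S phase members differed little between the bud pools. Of 9 members, 3 had higher VEGF arrays (33.3%), 1 had lower ones (11.1%) and 5 overlapped, with a median difference of 0.01. Among all genes at a level of at least 8 the shares were 36.1% and 22.9%. Mcm2, a subunit of the MCM helicase that unwinds DNA, was at 9.72 and 9.74 against 9.56 on both control arrays (0.17 [0.15, 0.18]). It stood apart from its partners, since Mcm3 differed by 0.08 and Mcm4, Mcm5, Mcm6 and Mcm7 by -0.02 to 0.04. Rrm2, which supplies deoxynucleotides, differed by 0.10 and Pcna, the sliding clamp of the replication fork, by 0.01. Tyms, the thymidylate synthase, was lower by a difference of -0.10 [-0.14, -0.07].

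**Figure D1:**
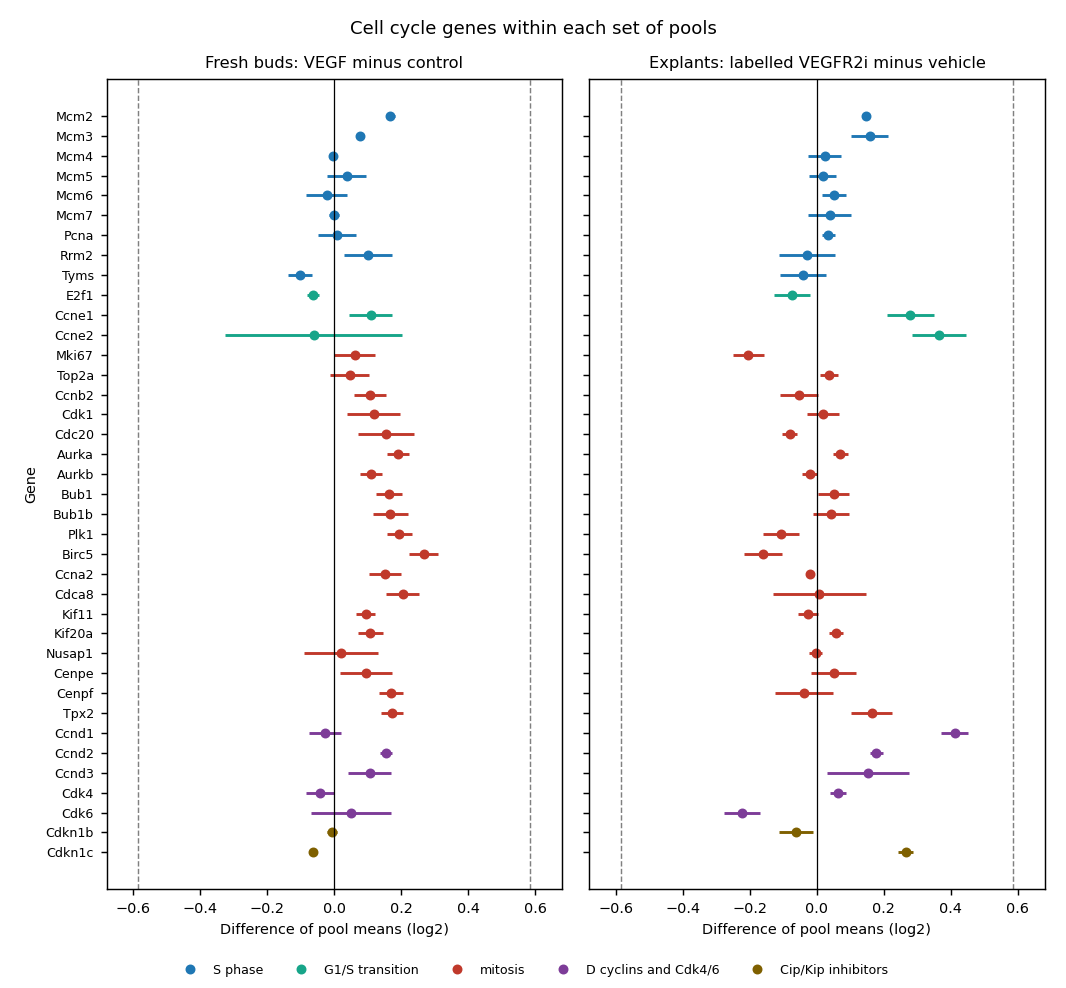
Difference of pool means in log2 expression (horizontal axis) for the 38 measured genes (vertical axis), coloured by role, for VEGF minus control buds on the left and the explants labelled VEGFR2i minus vehicle on the right. Points are differences of pool means, bars span the lowest to the highest pair of arrays, and dashed lines mark 1.5-fold. On the left all 19 mitotic genes lie to the right of 0, up to 0.27 for Birc5; on the right they lie on both sides of 0, and Ccnd1 (0.41) and Ccne2 (0.37) lie farthest out. No gene reaches the dashed lines.

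Members of G1 and the G1/S transition lay on both sides of 0 between the bud pools. Ccnd1, cyclin D1, was at 9.91 and 9.99 against 9.99 and 9.97 with overlapping arrays. Ccnd2 was higher, at 10.87 and 10.91 against 10.74 on both control arrays (0.15 [0.14, 0.17]), and so was Ccnd3, at 8.23 and 8.28 against 8.18 and 8.11 (0.11). The kinase genes Cdk4 and Cdk6 differed by -0.04, with separate arrays, and by 0.05, with overlapping ones. At the G1/S transition, Ccne1 was higher by 0.11 and E2f1 lower by a difference of -0.06, both with separate arrays, and the arrays of Ccne2 were too far apart, at 6.08 and 5.78 in the VEGF pool and 6.10 and 5.88 in the control pool, to show a difference.

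The inhibitor Cdkn1b (p27) was at 7.45 and 7.42 in the VEGF pool and 7.45 and 7.44 in the control pool, so its arrays overlapped. Cdkn1c (p57), an imprinted gene that endocrine precursors are known to switch on as they leave the cycle, was at 11.50 and 11.51 against 11.56 and 11.57. That difference of -0.06 [-0.08, -0.05] exceeded the array gaps but was only a 1.05-fold level.

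In lists of other genes of the same pathways, higher VEGF arrays outnumbered lower ones for mitosis, replication and the Rb pathway alike. Of all genes with a mean level of at least 5, 30.0% had higher and 25.1% lower VEGF arrays. Beside 23.7% higher and 21.6% lower among all genes, 48 of 65 other mitotic genes had higher VEGF arrays (73.8%) and 2 lower ones (3.08%), with a median of 0.14; Ncapd2 of the condensin complex (0.35), the G2 protein Gtse1 (0.31), the chromokinesin Kif22 (0.27) and the kinetochore protein Nuf2 (0.27) differed most. Of 50 other replication genes, 24 had higher (48.0%) and 4 had lower arrays (8%), with a median of 0.05; whether they differ from the S phase members was not tested. Cdc7, the kinase that fires origins, came closest to the size rule, at 7.58 and 7.52 against 6.97 and 7.0015 (0.57 [0.52, 0.61]). None of the other mitotic, replication, Rb pathway, INK4 or checkpoint genes passed the size rule in the buds as deposited; after centring Cdc7 did (0.59). Of 28 other G1 and Rb pathway genes, 13 had higher (46.4%) and 1 had lower arrays (3.57%), with a median of 0.07. Of 20 p53 target genes, 1 was past the size rule, Gadd45a, lower by a difference of -0.70, beside 0.933% of all genes downwards. In that list 5 genes had higher (25%) and 9 had lower arrays (45%), with a median of -0.05.

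**Figure D2:**
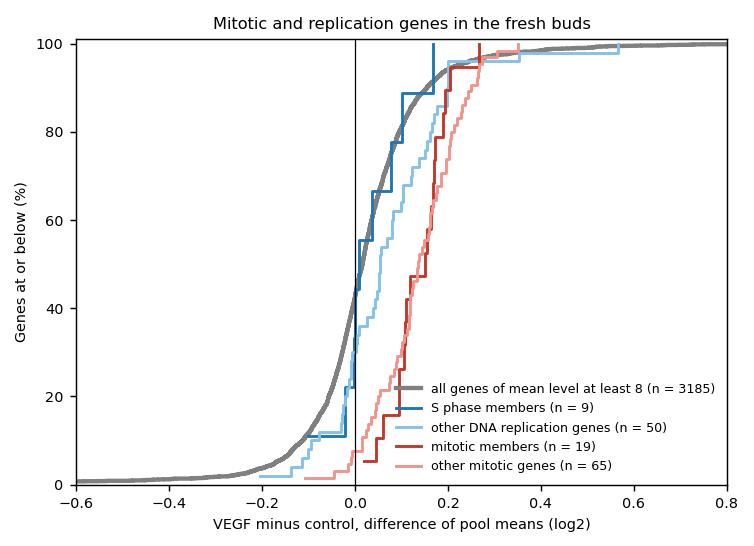
Cumulative share of genes (vertical axis, percent) at or below a given difference between the VEGF and control pools (horizontal axis, log2), for mitotic members, other mitotic genes, S phase members, other replication genes and all 3185 genes of mean level at least 8. The mitotic curves lie to the right of the grey curve, with medians of 0.15 and 0.14 against 0.02, while that of the S phase members (0.01) runs along it.

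The mean level of the mitotic members was 8.61 and 8.58 on the VEGF arrays and 8.49 and 8.44 on the control arrays. The median difference of the mitotic members was 0.13 between the first arrays and 0.14 between the repeats. Within the control pool the first array was the higher one for 15 of 19 mitotic members, by a median of 0.06, and for 56.0% of all genes. Levels of cell type markers also differed between the same pools, where 0.552% of all genes passed the size rule upwards and 0.933% downwards. Of 17 endothelial markers, 5 passed the size rule upwards, and their mean level was 7.94 to 7.97 on the VEGF arrays against 7.42 to 7.46. Of 12 erythroid markers, 6 passed upwards (mean level 6.51 against 5.74), and of 8 mesothelial markers, 5 did (6.62 to 6.66 against 6.13 to 6.17). Leukocyte markers passed in 0 of 12 (6.04 to 6.11 against 5.96 to 6.02) and mesenchymal ones in 2 of 16, both downwards (7.85 to 7.87 against 7.80 to 7.82). Endocrine markers passed downwards in 12 of 14 (5.31 to 5.38 against 6.63 to 6.65), epithelial ones in 8 of 13 (7.43 to 7.53 against 8.09 to 8.12) and acinar ones in 5 of 15 (4.88 to 4.93 against 5.48 to 5.51). Their part in the mitotic difference was not tested.

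Between the explants, mitotic genes showed no common shift, and the larger differences were those of G1 genes. Of 19 mitotic members, 5 had higher arrays in the pool labelled VEGFR2i, 6 had lower ones and 8 overlapped, with a median of -0.004; among all genes 25.9% had higher and 25.0% lower arrays, and among those with a mean level of at least 8, 40.9% and 26.1%. Mki67 was lower, at 9.30 and 9.31 against 9.47 and 9.56 in the pool labelled vehicle (-0.21 [-0.25, -0.16]), and Birc5 also, at 6.39 and 6.32 against 6.53 and 6.50 (-0.16). Tpx2 went the other way, at 9.07 and 9.02 against 8.92 and 8.84 (0.16), and Top2a was nearly level at 10.04 and 9.9997 against 9.97 and 9.99. No member passed the size rule, which 1.82% of all genes passed upwards and 0.371% downwards.

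Ccnd1, Ccne2 and Ccne1 had the largest differences among the members. Ccnd1 (probe set 10569646) was at 9.51 and 9.55 in the pool labelled VEGFR2i and at 9.10 and 9.14 in its vehicle counterpart (0.41 [0.37, 0.45], or 1.33-fold). Ccne2 was at 6.10 and 5.98 against 5.69 and 5.66 (0.37 [0.28, 0.45]), and Ccne1 at 8.77 and 8.70 against 8.50 and 8.43 (0.28 [0.21, 0.35]). Both genes encode the cyclins that take a cell from G1 into S phase. All 3 D cyclins lay higher, Ccnd2 at 11.05 and 11.07 against 10.89 and 10.88 (0.18) and Ccnd3 at 7.95 and 7.78 against 7.75 and 7.68 (0.15). The arrays of the 2 pools did not overlap for any of these 5 cyclin genes.

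The kinase gene Cdk6 was lower, at 8.76 and 8.71 against 8.98 and 8.93 (-0.22 [-0.28, -0.17]), whereas Cdk4 was higher by 0.06. The inhibitors also parted. Cdkn1c was at 11.62 and 11.66 against 11.37 on both arrays labelled vehicle (0.26 [0.24, 0.29]), and Cdkn1b at 7.85 and 7.77 against 7.89 and 7.86 (-0.06). S phase members lay between -0.04 and 0.16, with 4 of 9 higher (44.4%) and none lower by array order. Among genes with a mean level of at least 8 the shares were 40.9% and 26.1%, and among all genes 25.9% and 25.0%. The largest S phase difference was that of Mcm3, at 9.72 and 9.67 against 9.56 and 9.51 (0.16).

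**Figure D3:**
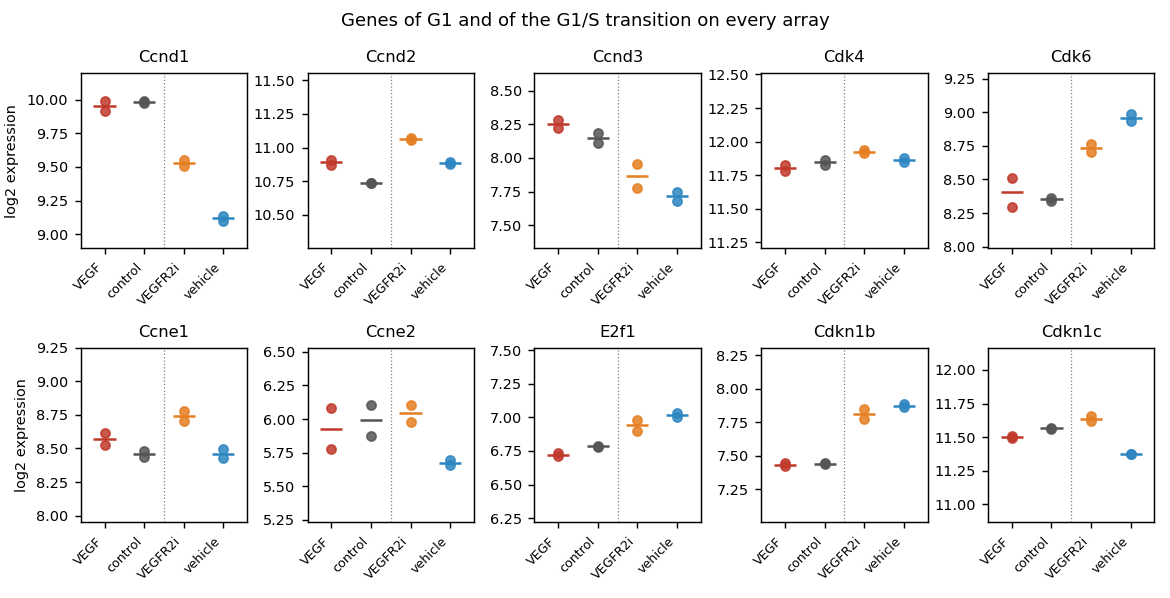
log2 expression (vertical axes, each spanning 1.3 units) of 10 genes of G1, the G1/S transition and the Cip/Kip family on each of the 8 arrays, by pool (horizontal axes); short lines are pool means, and dotted lines part the fresh buds from the explants. Ccnd1, Ccne2 and Cdkn1c are higher in the pool labelled VEGFR2i than in the vehicle pool and Cdk6 is lower, whereas these 4 genes differ by at most 0.06 between the bud pools.

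Other genes of the pathways gave no member past the size rule in the explants. Of 65 other mitotic genes, 21 had higher and 9 lower arrays in the pool labelled VEGFR2i (median 0.04), or 32.3% and 13.8%, with 25.9% and 25.0% among all genes. Among genes with a mean level of at least 5 the shares were 36.6% and 24.5%. Of 50 other replication genes, 22 had higher (44.0%) and 8 lower arrays (16.0%), with a median of 0.06. Of 28 other Rb pathway genes, 13 had higher (46.4%) and 1 had lower arrays (3.57%), with a median of 0.05 and with the largest difference for Mycn, a growth-promoting transcription factor of the Myc family (0.30). Beside these values, endothelial markers averaged 6.74 to 6.75 in the pool labelled VEGFR2i and 4.65 to 4.73 in the pool labelled vehicle, and leukocyte markers 5.97 to 6.10 and 5.06 to 5.09, with 10 of 12 past the size rule. Mesenchymal markers averaged 8.28 against 7.92 to 7.99 (3 of 16 past the rule) and acinar markers 8.60 to 8.65 against 9.33 to 9.36 (8 of 15, all lower). Of 12 erythroid markers, 2 passed upwards (median 0.03). The size rule was passed by 1.82% of all genes upwards and 0.371% downwards. Epithelial, endocrine and mesothelial markers had none past the rule, with medians of -0.17, -0.01 and 0.08. Their part in the cyclin differences was not tested.

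The comparisons of buds and explants share no pool, so members were set side by side. Mcm2, Mcm3, Ccne1, Aurka, Bub1, Kif20a, Tpx2, Ccnd2 and Ccnd3 were higher in both the VEGF pool and the pool labelled VEGFR2i (23.7% of members, 9.87% of all genes), and E2f1 was lower in both (2.63% of members, 7.47% of all genes). Higher arrays in the VEGF pool with lower ones in the pool labelled VEGFR2i were seen for Cdc20, Aurkb, Plk1, Birc5 and Ccna2 (13.2% of members, 4.23% of all genes). The reverse was seen for Cdk4 and Cdkn1c (5.26% of members, 4.65% of all genes).

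Cultured and fresh buds were also compared, with the reservation that the sets may have been normalized separately. Array medians were 0.21 higher in the vehicle explants, and the median gene differed by 0.17. In the deposited values 17.9% of all genes passed the size rule upwards and 4.08% downwards, 3578 and 814 genes. That split became 2269 and 1279 with arrays centred on their medians, and 1970 and 1487 after quantile normalization of all arrays. Genotype, culture and time differ together between these pools. As deposited, 22 of 38 members had higher and 10 lower arrays in the vehicle explants, against 67.8% and 16.0% of all genes. The members' median was 0.10 as deposited, -0.11 after centring and -0.18 after quantile normalization, so no direction can be given for the members as a whole. Of 38 members, 19 kept their direction under all 3 scalings, 13 of them lower in the vehicle explants (34.2%) and 6 higher (15.8%). Among all genes 61.7% kept it, 22.2% lower and 39.5% higher.

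Ccnd1 was lower in the explants. It was at 9.99 and 9.97 in the control buds and 9.10 and 9.14 in the vehicle explants, a difference of -0.86 [-0.89, -0.84] or 1.82-fold, and passed the size rule under all 3 scalings (-1.08 centred, -1.17 quantile normalized). Against the same control pool, the explants labelled VEGFR2i differed by -0.45, and by -0.65 and -0.75 under those scalings. Its arrays were thus highest in the fresh buds, lower in the pool labelled VEGFR2i and lowest in the vehicle pool, with no overlap between fresh, VEGFR2i and vehicle arrays. Ccnd3 followed the same order, at 8.18 and 8.11 in the control buds and 7.75 and 7.68 in the vehicle explants (-0.43, or -0.65 and -0.74 under the other scalings), and -0.28 in those labelled VEGFR2i. Ccnd2 did not: its difference was 0.15 as deposited and -0.07 and -0.14 under the other scalings.

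Cdk6 had the largest positive difference, at 8.34 and 8.37 in the control buds and 8.98 and 8.93 in the vehicle explants (0.60 [0.57, 0.64]). It kept that direction but fell short of the size rule after centring (0.39), after quantile normalization (0.30) and without the first vehicle array (0.58). The inhibitor Cdkn1b was at 7.45 and 7.44 against 7.89 and 7.86 (0.43, or 0.22 and 0.13), and 0.37 above the control buds in the explants labelled VEGFR2i. Cdkn1c lay lower in the vehicle explants under each scaling (-0.19, -0.41 and -0.43), while in the pool labelled VEGFR2i its sign changed with the scaling (0.07, -0.13 and -0.16).

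Mitotic members split across the sets rather than moving as a block. Of 19, 12 kept their direction under all 3 scalings, 4 of them higher in the vehicle explants and 8 lower. Cdca8, at 7.62 and 7.54 in the control buds against 8.02 and 8.12 in the vehicle explants (0.49), Cdc20, at 7.68 and 7.59 against 8.06 and 8.05 (0.42), and Cdk1, at 8.68 and 8.54 against 9.03 and 8.99 (0.40), were higher, and so was Ccna2, at 9.39 and 9.40 against 9.72 and 9.73 (0.33). These directions held under all 3 scalings. Cenpe, at 8.04 and 7.94 against 7.53 and 7.55 (-0.45), and Bub1, at 8.95 on both control arrays against 8.61 and 8.62 (-0.34), were lower under all 3. So were Mki67 (-0.03, -0.24 and -0.33) and Top2a (-0.10, -0.31 and -0.40), although for Mki67 the deposited arrays overlapped. Cenpe passed the size rule downwards after centring (-0.66) and quantile normalization (-0.75), and Bub1 after quantile normalization alone (-0.64). No mitotic member passed upwards, and of all genes 6.41% and 7.46% passed downwards under these scalings. Of the 9 S phase members, only Mcm2 kept its sign (-0.09, -0.31 and -0.39).

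**Figure D4:**
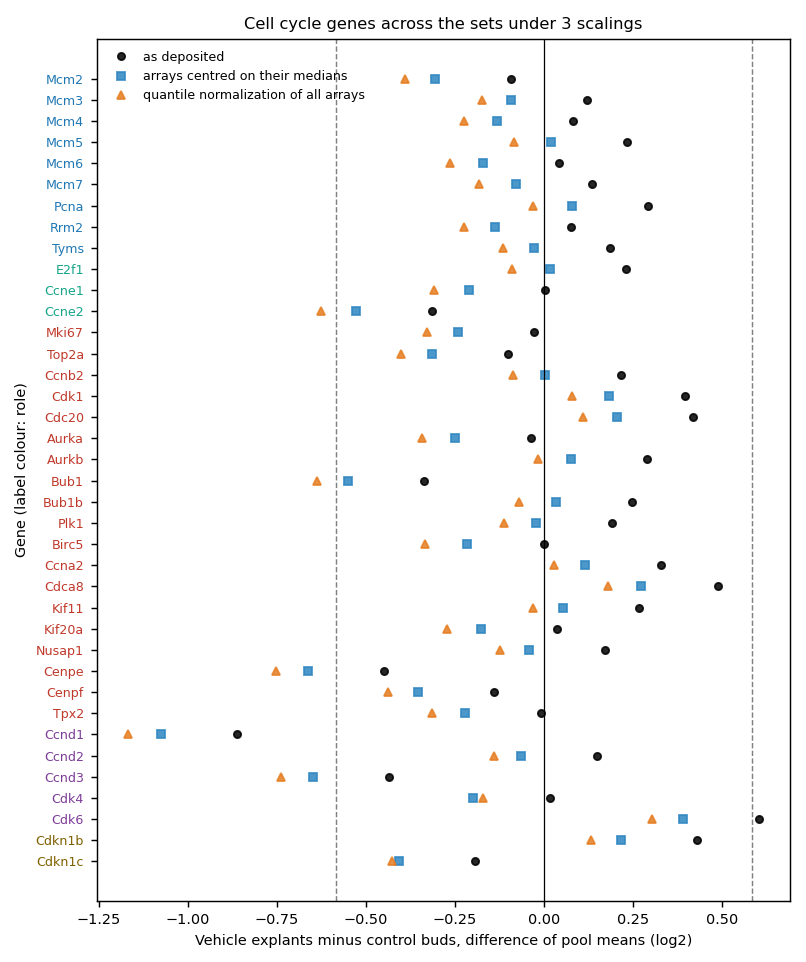
Difference between vehicle explants and control buds (horizontal axis, log2) for the 38 measured genes (vertical axis, label colours by role as in the plot of differences within sets), as deposited (circles), with arrays centred on their medians (squares) and after quantile normalization (triangles); dashed lines mark 1.5-fold. Ccnd1 lies below the left line in all 3 cases and Cdk6 right of 0, while 19 genes change sign between scalings.

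Regulators outside the member list differed more across the sets. Of 20 measured p53 target genes, 14 passed the size rule upwards in the vehicle explants against the control buds and none downwards, with 17.9% of all genes past it upwards. Their median was 1.06, against 0.17 for all genes, and 13 of 20 passed under each other scaling. Btg2, an antiproliferative gene, was at 4.92 and 4.81 in the control buds and 7.83 and 7.72 in the vehicle explants (2.91). The death receptor Eda2r was at 3.28 and 3.16 against 5.74 and 5.81 (2.56), the epithelial junction gene Perp at 3.59 and 3.63 against 6.13 and 6.09 (2.50), and Ccng1, cyclin G1, at 8.49 and 8.44 against 10.05 and 10.09 (1.61). All 4 were also past the size rule in the pool labelled VEGFR2i against the same control pool, a comparison in which 17.7% of all genes passed upwards and the list median was 1.10. On the control arrays Eda2r and Perp lay near the dim end of the scale, below the medians of the bud arrays (4.08 to 4.12).

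INK4 proteins bind Cdk4 and Cdk6 directly. Of 4 INK4 genes, Cdkn2b was at 3.80 and 3.78 in the control buds and 5.25 on both vehicle arrays (1.46, or 1.25 and 1.24 under the other scalings), and Cdkn2c at 3.82 and 4.05 against 4.66 and 4.59 (0.69), a call lost under both other scalings (0.48 each). Both were near the dim end of the scale. Of 28 other G1 and Rb pathway genes, 6 passed upwards (21.4%) and 1 downwards (3.57%) as deposited, near the shares of all genes (17.9% and 4.08%). After centring 3 passed upwards and 1 downwards (10.7% and 3.57%, against 11.4% and 6.41%), and after quantile normalization 3 and 2 (10.7% and 7.14%, against 9.88% and 7.46%). Mycl (1.51), Myc (1.01) and the retinoblastoma gene Rb1 (0.95) passed under all 3 scalings and its relative Rbl2 (0.75) as deposited alone. The gene that passed downwards was Mycn (-0.67), named after its value was seen, at 7.98 and 7.81 against 7.20 and 7.23. Of 65 other mitotic genes, 5 passed upwards as deposited (7.69%, against 17.9% of all genes), led by the centrosome kinase Nek2 (1.03), and none downwards. After quantile normalization 1 passed upwards, Nek2 (1.54%, against 9.88% of all genes), and 5 downwards (7.69%, near the 7.46% of all genes). The list median was 0.10 as deposited, -0.11 after centring and -0.21 after quantile normalization, so the list has no settled direction. Of 50 other replication genes, 2 passed upwards as deposited (4.00%), the licensing inhibitor Gmnn (0.74) and the polymerase subunit Pold2 (0.63). Under each other scaling none passed upwards and 3 downwards (6%). The shares of all genes downwards were near that, at 6.41% after centring and 7.46% after quantile normalization.

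**Figure D5:**
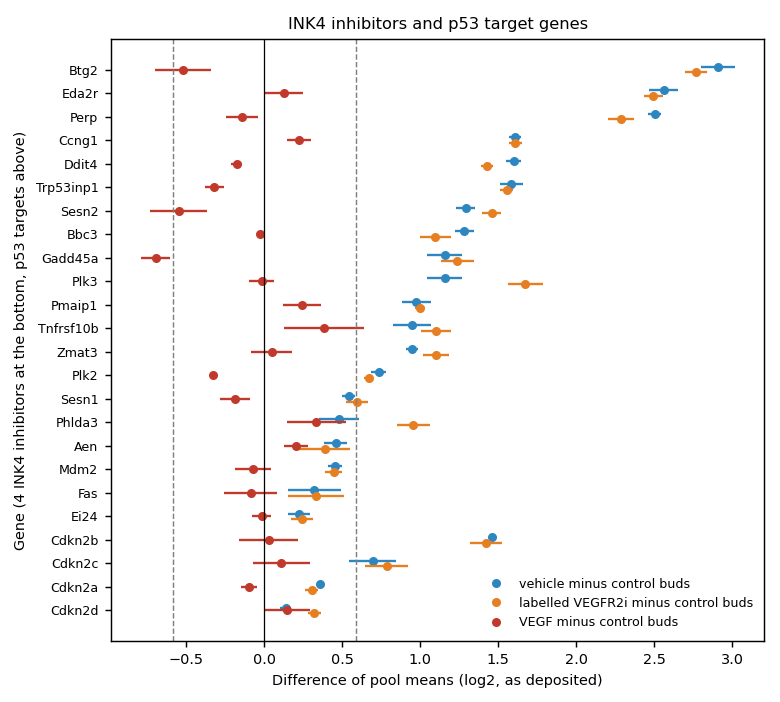
Difference of pool means (horizontal axis, log2, as deposited) of 20 p53 target genes and, at the bottom, 4 INK4 inhibitor genes (vertical axis) for vehicle explants, explants labelled VEGFR2i and VEGF buds, each against the control buds; bars span the pairs of arrays and dashed lines mark 1.5-fold. Both explant pools lie right of 0 for every gene, with Btg2 at 2.91 and 2.77, while the VEGF pool lies on both sides.

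Markers of most cell types differed across the same pools by more than the cell cycle members. Mesenchymal and mesothelial markers had medians of 0.15 and 0.29 in the vehicle explants as deposited, beside 0.10 for the members. In the vehicle explants against the control buds, acinar markers passed the size rule upwards in 14 of 15 cases, endocrine ones in 12 of 14 and epithelial ones in 12 of 13, beside 17.9% of all genes. The same counts were found for the pool labelled VEGFR2i. Endothelial markers passed downwards in 17 of 17 cases in the vehicle pool (median -2.71, beside 4.08% of all genes) and in 9 of 17 in the pool labelled VEGFR2i (median -0.62). Leukocyte markers passed in 1 case upwards and 7 downwards of 12 in the vehicle pool, and in 3 and 2 in the pool labelled VEGFR2i. Mesenchymal markers passed in 3 cases upwards and 5 downwards of 16, and in 5 and 3. Mesothelial markers passed in 3 cases upwards and 1 downwards of 8, and in 4 and 1. Erythroid markers passed in 1 case upwards and 6 downwards of 12 in both explant pools. Mean levels of the epithelial markers were 9.52 to 9.55 in the vehicle pool and 8.09 to 8.12 in the control buds, and of the endocrine markers 8.74 to 8.76 and 6.63 to 6.65. Their part in the differences of Ccnd1, Cdk6 and the p53 target genes was not tested.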

How the data were processed

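The authors deposited 1 log2 value per probe set and array. Partek Genomic Suite 6.5 was their software and RMA, a robust multi-chip average, their normalization, as the design text states. Joint normalization of all 8 arrays is not given in the sources. RMA forces arrays normalized together to 1 distribution, so a shift common to most genes would be lost, and it shrinks differences of dim genes. Of 35399 probe sets, 21789 had 1 symbol in the platform annotation, 1621 several and 11989 none. The brightest probe set over the 8 arrays stood for a gene (3 members had more than 1), which left 19938 genes; no member's symbol was changed by RefSeq.

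Pools were compared by means of 2 arrays with a rule of 1.5-fold and non-overlapping arrays, since 1 pool per group allows no test. The number of arrays limits the precision. Members, roles, lists and motifs were chosen with earlier results of these data known. Values on every array are given for Mki67, Top2a, the D cyclins and the Cip/Kip genes, and for the 10 members with the largest difference in each comparison; of other lists, up to 4 genes with the largest differences are named. Exceptions are marked. Alternatives were other fold sizes, a floor of 5 on the mean level, the mean of a gene's probe sets, centring, quantile normalization, leaving out each array, the t-test that the design text names and limma 3.58.1; a floor of 8, single array rounds and the 300 base window were added after the data were seen. The rule was tested on simulated data. Python 3.11.15, pandas 2.3.3, scipy 1.17.1 and R 4.3.3 were used.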

Additional observations from a re-analysis of the deposited data

How the results depend on the processing

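The count of members past the size rule between the bud pools was 0 at 1.5-fold and 1 at 1.2-fold, and between the explants 0 and 4. For all genes, the bud pools gave 296 at 1.5-fold, 50 at 2-fold and 1444 at 1.2-fold, and the explants 437, 133 and 1785. The methods' t-test after Benjamini-Hochberg adjustment left 0 and 1 of these genes past the rule, and limma, which treats arrays as replicates, 294 and 435; neither included a member. Between the bud pools, mitotic members with higher VEGF arrays numbered 16 to 19 and those with lower ones 0 to 1 when 1 array was left out, and 1 was lower with the repeat arrays only. The members' median there was 0.065 to 0.12 when 1 array was left out, lowest without the repeat control array. Counts of separate arrays can only stay or grow when arrays are left out, and with 1 array per pool every gene is separate, so these counts do not bear on stability. Between the explants, 5 mitotic members were higher in the pool labelled VEGFR2i with all arrays, 5 to 9 with 1 array left out, 10 with first arrays only and 8 with repeats only, which left 11 lower. Other mitotic genes numbered 21, 24 to 37 and, with first arrays only, 48. Between vehicle explants and control buds, 2 members passed at 1.5-fold, 0 at 2-fold, 14 at 1.2-fold, 5 after quantile normalization, 1 with repeat arrays only and 1 to 2 with 1 array left out; all genes gave 1914 at 2-fold and 9491 at 1.2-fold. The members' median there was -0.11 after centring and -0.18 after quantile normalization, mitotic members with higher arrays numbered 6 and 3, those with lower ones 9 and 12, and other mitotic genes with higher arrays 16 and 10. A reversal of sign was scored only for members past the rule, and within the buds and within the explants there were none to score. Between vehicle explants and control buds only Ccnd1 and Cdk6 were scored, and neither reversed. No paired analysis was possible because the labels mark technical repeats of a pool and give no replicate numbers that groups share.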

Other observations

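Genes of the DNA damage checkpoint and of recombination repair were measured for 16 of 17 listed. Between the bud pools and between the explants none passed the size rule. In the explants the largest difference was that of Chek1, the kinase that answers stalled replication, at 8.92 and 8.75 in the pool labelled VEGFR2i and 8.57 and 8.56 in the pool labelled vehicle (0.27). Chek2, the kinase that answers DNA breaks, was at 6.19 and 6.04 in the control buds and 7.10 and 7.16 in the vehicle explants (1.02, or 0.80 and 0.71 after centring and quantile normalization), and passed under all 3 scalings. It was the only 1 of the 16 to pass upwards (6.25%), against 17.9% of all genes as deposited, 11.4% after centring and 9.88% after quantile normalization. Downwards 0, 1 and 4 of the 16 passed under these scalings (0%, 6.25% and 25%), against 4.08%, 6.41% and 7.46% of all genes. Brca2, of recombination repair, was at 6.97 and 6.98 against 6.48 and 6.63 (-0.42) and passed downwards only after centring (-0.63) and quantile normalization (-0.74); it was named after its values were seen.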
